A study of Homo sapiens with 4 samples.

Results

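The genes described here encode subunits of the proteasome. They were picked by symbol from a table of higher and lower genes that the authors deposited, as ADRM1 or any PSMA, PSMB, PSMC, PSMD, PSME, PSMF or PSMG gene with a number, and 8 of its 852 symbols matched. All 8 stand among the 295 lines of lower genes and none among the 557 lines of higher genes. Each has a probe set that carries no other symbol. The arrays compared cells of HCT116, a human colorectal carcinoma line in wide use, transfected with a short hairpin RNA (shRNA) against PCAF (SH PCAF, labelled as knock-down, n = 2 arrays) and the same cells transfected with a control shRNA (SH Ctrl, labelled as wild-type, n = 2 arrays). PCAF, a histone acetyltransferase and coactivator, is the older name of KAT2B. Both groups were growing asynchronously when total RNA was taken. Neither the hairpin sequences nor the time after transfection is given in the sources used here.

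The proteasome is the barrel-shaped protease that degrades most short-lived proteins of the cytosol and nucleus, including many regulators of the cell cycle. Its 20S core particle is built of stacked rings of alpha subunits, which form the gate, and beta subunits, of which some hold the catalytic sites. The 19S regulatory particle caps the core, binds ubiquitin chains, unfolds the substrate with a ring of ATPases and passes it into the core. Mammalian proteasome genes are known to be transcribed in concert, in part under the transcription factor NRF1 (gene NFE2L1), which binds antioxidant response elements. The p27 protein named in the title of the series is itself a proteasome substrate after ubiquitination by the ligase that contains SKP2.

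The values are log2 signals of 33297 probe sets on each array, with array medians of 7.03 and 7.02 for SH PCAF and 7.08 and 7.10 for SH Ctrl. Arrays correlated at a Pearson r of 0.995 within SH PCAF and 0.997 within SH Ctrl over probe sets, against 0.987 to 0.989 between the groups. The number of arrays, 2 in each group, sets the precision of all values here. Whether the arrays of a group came from separate cultures is not stated, so the spread within a group may be technical. Gene symbols come only from the deposited table. PCAF is not named there, so the level of the shRNA target was not analysed here, nor were markers of the cell line. In bulk RNA, fewer cells that express a gene and less RNA per cell cannot be told apart.

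The signals of all 8 proteasome genes were lower in SH PCAF cells, at 48.9% to 60.8% of the SH Ctrl level. Both particles were represented equally, with 4 genes of the 20S core (PSMA5, PSMA6, PSMB2 and PSMB6) and 4 of the 19S particle (PSMC2, PSMD1, PSMD6 and ADRM1). Because the deposited table was selected on these same arrays, the differences below describe the members and are not evidence for their direction.

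Among the alpha subunits of the core, PSMA6 encodes alpha-1. Its log2 signal was 11.14 and 11.03 in the SH PCAF arrays, against 11.96 and 12.05 in the SH Ctrl arrays. Both SH PCAF arrays were below both SH Ctrl arrays, and the difference of SH PCAF minus SH Ctrl was -0.92 ± 0.079 (limma's moderated SE, n = 2 each) on the log2 scale, a 1.89-fold lower signal. PSMA5, which encodes alpha-5, had log2 signals of 9.76 and 9.79 in SH PCAF and 10.56 and 10.49 in SH Ctrl. The groups did not overlap, and the signal was 1.68-fold lower in SH PCAF, with a log2 difference of -0.75 ± 0.070 (SE, n = 2 each).

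Of the beta subunits, PSMB6 encodes beta-1, which carries the caspase-like catalytic site of the constitutive proteasome. It had the largest difference of the 8 genes. Its log2 signal was 12.02 and 12.02 in the SH PCAF arrays, against 13.06 and 13.05 in the SH Ctrl arrays. The arrays of each group nearly coincided, at 0.0040 apart in SH PCAF and 0.016 apart in SH Ctrl. The log2 difference was -1.03 ± 0.065 (SE, n = 2 each), which leaves 48.9% of the SH Ctrl signal. PSMB2 encodes beta-4, a structural subunit without a catalytic site. Its log2 signals were 12.07 and 12.19 in SH PCAF and 12.79 and 12.91 in SH Ctrl. The groups were again apart, by 0.60 between their nearest arrays, and the signal was 1.65-fold lower in SH PCAF. The probe set of PSMB2 lies among the 4201 lowest identifiers of the array, a run that the files do not describe, and it is the 1 member that does.

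In the 19S particle, PSMC2 encodes Rpt1, an ATPase of the ring that unfolds substrates. Its log2 signal was 11.00 and 11.16 in SH PCAF, against 11.84 and 11.77 in SH Ctrl. The arrays of SH PCAF were 0.16 apart, the widest gap within a group among the members, and the difference of -0.72 ± 0.086 (SE, n = 2 each) was the smallest of the 8. PSMD1 encodes Rpn2, a large scaffold subunit of the 19S base to which ADRM1 attaches. It had log2 signals of 11.06 and 11.19 in SH PCAF and 11.91 and 11.85 in SH Ctrl, without overlap. PSMD6, which encodes the lid subunit Rpn7, had log2 signals of 9.16 and 9.22 in SH PCAF and 9.93 and 9.96 in SH Ctrl. The signals of PSMD1 and PSMD6 were lower in SH PCAF by 1.69-fold and 1.68-fold. ADRM1 encodes Rpn13, a ubiquitin receptor that also recruits the deubiquitinase UCHL5. Its log2 signal was 11.20 and 11.17 in SH PCAF and 12.14 and 12.14 in SH Ctrl. The SH Ctrl arrays were only 0.0017 apart, and the log2 difference was -0.96 ± 0.066 (SE, n = 2 each), or 1.94-fold lower.

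**Figure D1:**
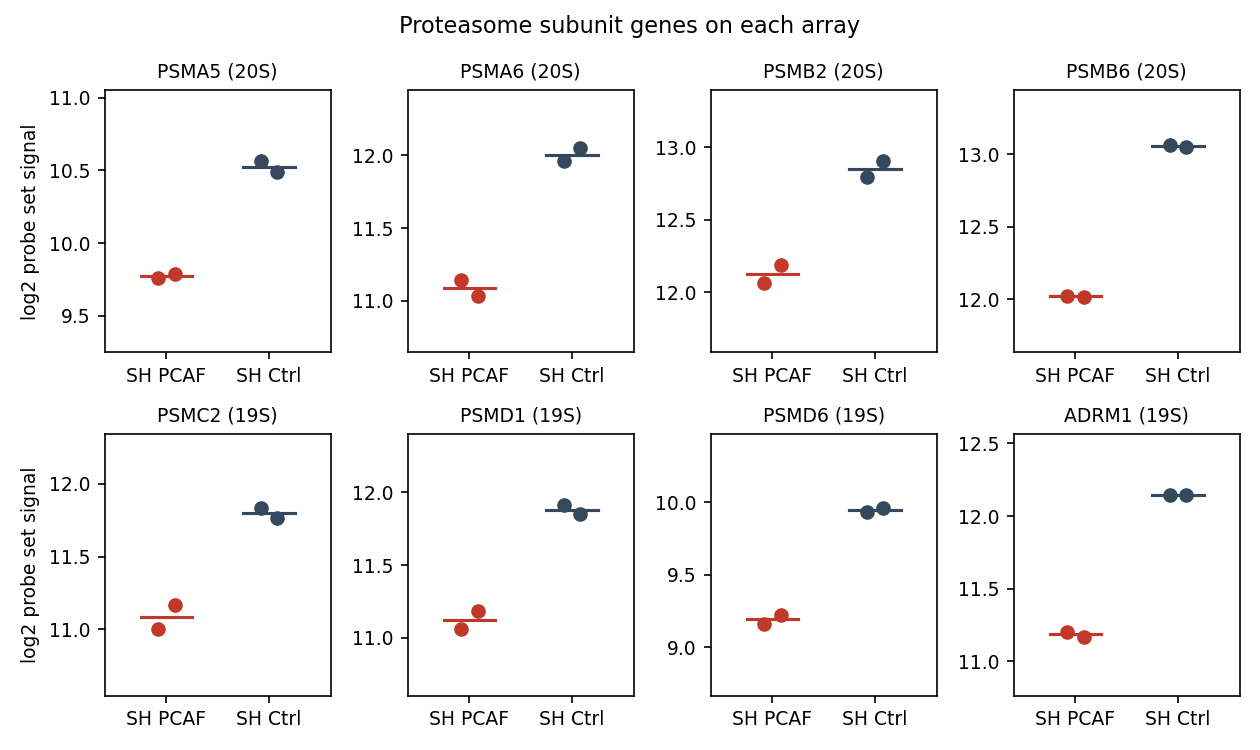
Log2 probe set signal (vertical axis) of each of the 8 proteasome subunit genes in SH PCAF (left) and SH Ctrl (right). Points are single arrays, 2 per group, lines are group means, and every panel spans the same height on its own level. In each panel both SH PCAF points lie below both SH Ctrl points, with nearest arrays 0.60 (PSMB2) to 1.02 (PSMB6) apart.

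For each of the 8 genes the gap between the nearest arrays of the groups exceeded the widest gap within a group, by 3.80 times for PSMC2 and by 63.4 times for PSMB6, the extremes. Both SH PCAF arrays lay below both SH Ctrl arrays for 8 of 8 members, a pattern shown by 36.0% of all probe sets. With limma and Benjamini-Hochberg adjustment across the whole set of 33297 probe sets, 8 of 8 members were called lower at an adjusted p below 0.05, where 5.85% of all probe sets were (4.26% after median centring of the arrays). A log2 difference of -0.7 or lower was found in 8 of 8 members and in 2.02% of all probe sets. The members were chosen from a table selected on this contrast, so nothing is read from these counts. The calls needed both SH Ctrl arrays. Without SH Ctrl replicate 1 or without SH Ctrl replicate 2, limma called 0 of 8 members and 0 probe sets in all, although all 8 members still had an unadjusted p below 0.05 each time. Without SH PCAF replicate 1 and without SH PCAF replicate 2, 8 of 8 were called.

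The differences lay in 2 ranges. PSMB6, ADRM1 and PSMA6 were lower by 0.92 to 1.03 on the log2 scale, whereas the other 5, PSMD1, PSMD6, PSMA5, PSMB2 and PSMC2, lay between -0.76 and -0.72. Those 5 differ from one another by less than their standard errors, so their order is not resolved. Whether the 2 ranges are distinct was not tested. Without SH PCAF replicate 2 the genes that border the gap drew close, with PSMA6 at -0.86 and PSMD1 at -0.82. Each range holds genes of both particles, with the core genes PSMB6 and PSMA6 and the 19S gene ADRM1 in that of the larger differences. The median log2 difference was -0.83 over the 4 core genes and -0.76 over the 4 genes of the 19S particle, and the ranges overlapped (-1.03 to -0.72 and -0.96 to -0.72). Over all 8 genes the median was -0.76, against -0.05 over all 33297 probe sets and -0.86 over the 237 probe sets of the lower genes in the deposited table. Ranked by size of the difference among those 237, PSMB6 was 55th, ADRM1 81st and PSMA6 97th, and the other 5 stood between places 187 (PSMD1) and 218 (PSMC2). Among all probe sets, 144 had a difference as low as that of PSMB6 or lower (0.432%), and 621 as low as that of PSMC2 (1.87%).

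The table's own limit bears on this range. The smallest difference of any lower probe set in it was -0.70, close to the -0.72 of PSMC2 and PSMB2, and probe sets with smaller differences carry no gene name. Proteasome genes with a smaller difference would therefore not be seen here, and no member just outside the limit can be given. The table is not complete beyond its limit either. Of all probe sets, 671 were lower by at least 0.7, whereas the table names 237 lower ones. Proteasome genes with equal or larger differences may therefore be unseen as well. Nor are its fold changes folds of these signals. For the 8 members the value given in the authors' deposited table is 2.13 to 2.15 times the absolute log2 difference. The authors' deposited table gives PSMB6 as 2.20, where the signals give a 2.05-fold difference. For PSMC2 the authors' deposited table has 1.54, where the signals give 1.65-fold.

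Lists of the remaining proteasome and ubiquitin genes show how much of the pathway carries a name. The proteasome lists held 52 genes. The table holds 2 of 8 alpha subunits, 2 of 11 beta subunits, 1 of 6 ATPases and 3 of 13 other 19S subunits, all lower. It holds none of 5 activator and inhibitor genes (PSME1 to PSME4 and PSMF1) and none of 9 assembly chaperones. Absence from the table is no measurement of a gene. Of 142 further genes of the ubiquitin system in 8 lists, 8 were in the table, 6 lower and 2 higher, and limma called all 8 (5.85% of all probe sets were called lower and 12.9% in either direction), which again follows from how the table was made. SKP2 was not called without SH PCAF replicate 1 (limma, adjusted p = 0.0574), and without either SH Ctrl array 0 of these 8 were called, as no probe set was. None of the ubiquitin genes, E1 enzymes, E2 enzymes, proteasome-bound or shuttle factors, or transcription factors of proteasome genes, NFE2L1 among them, was in it.

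Of these 8 further genes, 6 were on the list of the SCF and the anaphase-promoting complex, ubiquitin ligases that mark cell cycle proteins for the proteasome. It was the only list of ligases searched, so that share follows from the choice of lists. SKP2, the SCF subunit that recognises p27, had log2 signals of 10.66 and 10.89 in SH PCAF and 11.70 and 11.49 in SH Ctrl. Its groups were apart, but the spread was wider than that of any proteasome gene, at a log2 difference of -0.82 ± 0.12 (SE, n = 2 each). CDC20, which activates the anaphase-promoting complex, had 11.65 and 11.77 in SH PCAF and 12.64 and 12.71 in SH Ctrl, or 1.95-fold lower. Of the subunits of that complex, ANAPC5 differed most, at 9.75 and 9.97 in SH PCAF and 11.17 and 11.23 in SH Ctrl, on a probe set of the undescribed run of identifiers. ANAPC15 (listed as C11orf51) was 1.77-fold lower in SH PCAF. A probe set shared by CDC26 and a pseudogene, CDC26P1, was 1.98-fold lower and cannot be given to either alone. ANAPC16 went the other way, with 9.70 and 9.77 in SH PCAF and 9.01 and 9.05 in SH Ctrl, a 1.63-fold higher signal. UFD1 (listed as UFD1L) encodes a cofactor of the p97 ATPase, which extracts ubiquitinated proteins for the proteasome. Its log2 signals were 9.81 and 9.87 in SH PCAF and 10.59 and 10.71 in SH Ctrl, a difference of -0.81 ± 0.078 (SE, n = 2 each). The deubiquitinase OTUD1 was higher in SH PCAF, at 8.95 and 8.77 against 7.83 and 7.96 in SH Ctrl, a 1.95-fold difference.

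**Figure D2:**
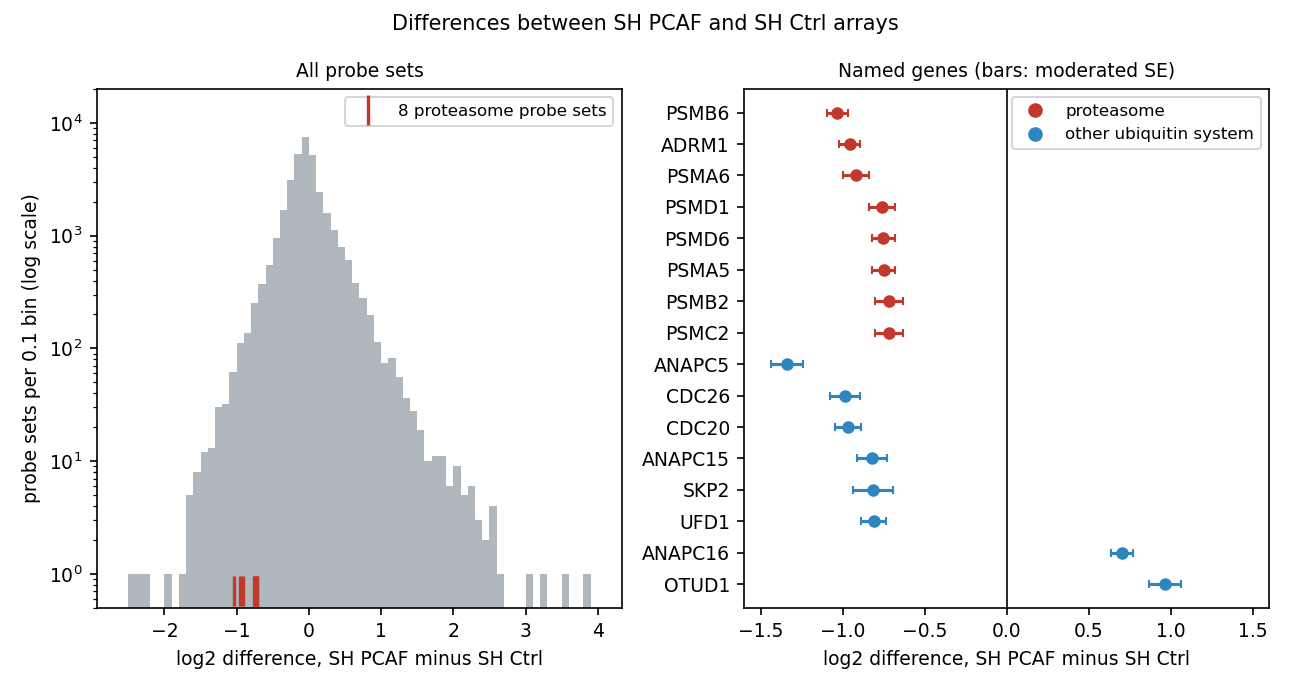
Left, the number of probe sets per bin of 0.1 (log scale) by log2 difference of SH PCAF minus SH Ctrl, with the 8 proteasome probe sets as red ticks between -1.03 and -0.72, left of the bulk of probe sets around -0.05. Right, the log2 difference of the 8 proteasome genes (red) and of the 8 other ubiquitin system genes in the deposited table (blue), with moderated SE; the proteasome genes are all below 0, and ANAPC16 and OTUD1 are the blue points above it.

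The genes with the profile most like the mean of the 8 members were sought among the 703 other probe sets of the table with a single symbol, by Euclidean distance over the 4 arrays after subtraction of each probe set's SH Ctrl mean. They were KIFC1, a kinesin of the mitotic spindle (distance 0.0187), NDUFB10, a subunit of respiratory complex I (0.0440), SLC38A5, an amino acid transporter (0.0475), CDK2AP1, a CDK2-associated protein (0.0544), and PPP2R5D, a regulatory subunit of protein phosphatase PP2A (0.0583). KIFC1 had log2 signals of 9.83 and 9.86 in SH PCAF and 10.67 and 10.68 in SH Ctrl. The members themselves lay 0.107 (PSMD6) to 0.296 (PSMB6) from their own mean. These 5 genes lay nearer to that mean, but they were picked as the smallest of 703 distances, so nothing is read from that. That mean, at -0.85 and -0.80 in the SH PCAF arrays, falls between the 2 ranges of the members' differences. The measure rests on 4 arrays in 2 groups, so it mostly reflects the size of the difference.

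Sequence upstream of the genes was not used in choosing them. RefSeq (GRCh38.p14) promoter windows were matched by symbol for 7 of the 8 genes, on 6 chromosomes, with 2 alternative starts each for PSMA6 (65 bases apart) and ADRM1 (101 bases apart), whose windows overlap and share sites, and the 250 bases before each start were searched. The CCAAT box, letters CCAAT, is the site of NF-Y and a common element of constitutive promoters. It was found on either strand upstream of 4 of the 7 genes, ADRM1, PSMA5, PSMC2 and PSMD6. By window it was in 5 of 9, against 32.0% of all 35116 RefSeq windows and 32.7% of the 22199 windows of protein-coding genes. Sequence of these 4 genes is printed because they hold that box. Of the 4 genes, 2 also hold the core CCGGAAG of ETS factors (2 of the 9 windows, 8.52% of all windows, 10.7% of protein-coding ones). Capitals mark CCAAT or CCGGAAG on either strand, and each sequence runs 5′ to 3′ on the strand of the gene and ends at the base before the start.
PSMC2, chr7:103347393-103347642, plus strand: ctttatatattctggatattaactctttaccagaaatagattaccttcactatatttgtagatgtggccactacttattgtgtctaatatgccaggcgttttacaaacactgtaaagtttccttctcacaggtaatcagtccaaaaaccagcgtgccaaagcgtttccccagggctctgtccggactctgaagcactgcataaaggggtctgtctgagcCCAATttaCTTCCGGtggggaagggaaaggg
PSMD6, chr3:64023495-64023744, minus strand: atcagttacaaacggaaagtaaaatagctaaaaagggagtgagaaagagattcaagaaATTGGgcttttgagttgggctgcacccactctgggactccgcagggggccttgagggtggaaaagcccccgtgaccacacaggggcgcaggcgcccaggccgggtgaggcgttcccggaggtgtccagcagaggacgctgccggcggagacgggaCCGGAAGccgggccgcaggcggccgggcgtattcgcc
PSMA5, chr1:109426449-109426698, minus strand: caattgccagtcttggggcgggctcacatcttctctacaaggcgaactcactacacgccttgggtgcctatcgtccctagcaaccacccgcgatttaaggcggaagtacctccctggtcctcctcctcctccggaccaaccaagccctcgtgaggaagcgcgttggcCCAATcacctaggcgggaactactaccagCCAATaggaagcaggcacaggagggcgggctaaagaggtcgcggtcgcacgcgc
ADRM1, chr20:62302646-62302895, plus strand, the first of its starts: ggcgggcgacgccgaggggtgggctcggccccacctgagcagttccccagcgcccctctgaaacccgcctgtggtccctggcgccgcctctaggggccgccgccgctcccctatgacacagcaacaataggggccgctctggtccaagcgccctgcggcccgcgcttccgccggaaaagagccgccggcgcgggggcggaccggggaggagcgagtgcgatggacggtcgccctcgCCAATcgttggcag

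Positions count back from the start, with -1 as the base before it. In PSMC2 the CCAAT box ran from -31 to -27 and the ETS core, on the opposite strand, from -23 to -17. PSMD6 had its ETS core from -37 to -31 and its CCAAT box, on the opposite strand, from -192 to -188. PSMA5 had 2 CCAAT boxes, from -83 to -79 and from -54 to -50. In ADRM1 the box ran from -14 to -10 before the first start. The genes with a CCAAT box include both ADRM1, with a difference of -0.96, and PSMC2, with a difference of -0.72. Of the other genes with larger differences, PSMA6 held no such box and PSMB6 had no window. Whether the box goes with the size of the difference was not tested.

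The other motifs were found as follows, on either strand. The GC box GGGCGG, bound by SP1, was upstream of 4 of the 7 genes (ADRM1, PSMA5, PSMA6 and PSMD1). It was in 6 of the 9 windows, and is in 42.6% of all windows and 53.7% of protein-coding ones. The motif TGANNNNGC, a loose form of the antioxidant response core, was upstream of 3 of the 7 genes (ADRM1, PSMA5 and PSMA6). That motif was in 5 of the 9 windows, and is in 35.2% of all windows and 35.0% of protein-coding ones. In PSMA5 one of its 4 matches overlaps a CCAAT box and another a GC box, and in PSMD1 adjoining GC boxes overlap each other. The E2F letters TTTCGCGC (0.439% of all windows, 0.608% of protein-coding ones) and the heat shock letters GAANNTTC (5.78% and 4.90%) were in none of these windows. PSMB2 held none of the 6 motifs in its window. The GC content of the 9 windows ran from 43.6% in PSMC2 to 74.4% in ADRM1, around a median of 60.8%, against a median of 62% for protein-coding windows. A match is a description of these letters and no measure of binding.

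**Figure D3:**
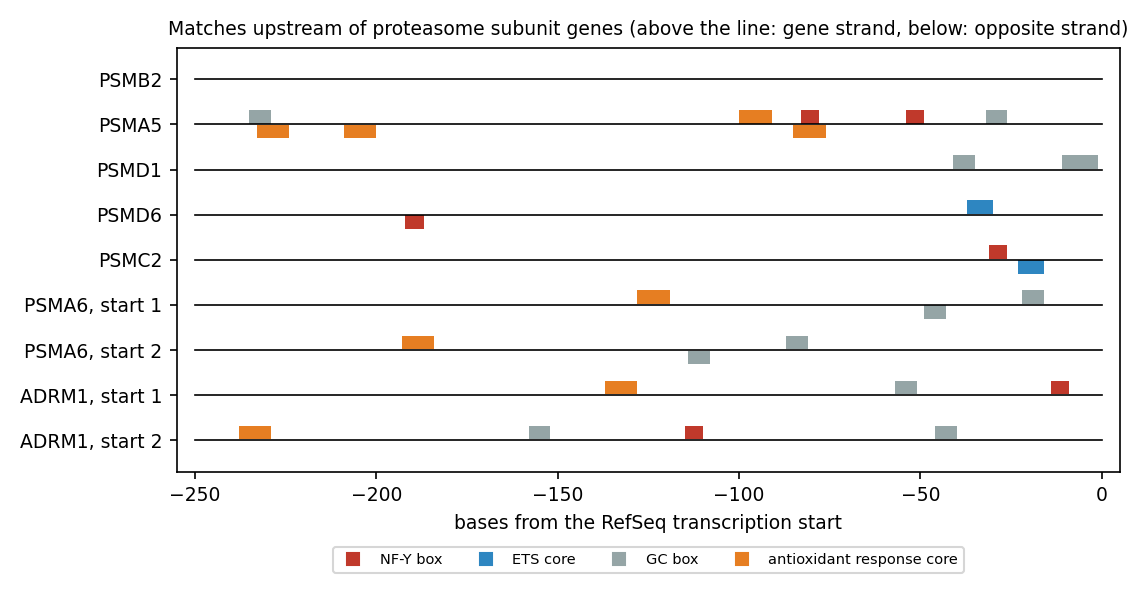
Position of motif matches in the 250 bases before each RefSeq transcription start (horizontal axis, bases from the start) of 7 proteasome genes, with a row for each of 9 windows. Boxes above a line lie on the strand of the gene and boxes below it on the opposite strand; NF-Y boxes (red) appear in 5 rows, the same box in both rows of ADRM1, ETS cores (blue) in the rows of PSMD6 and PSMC2, and PSMB2 has none.

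Other scalings moved the size of the differences but not their sign. That was to be foreseen, because the deposited table holds no lower probe set with a difference above -0.70. As the groups did not overlap, leaving out an array could not change a member's sign. With each array centred on its median, the median difference over the 8 genes was -0.69, and the difference of PSMB6 was -0.97. Under the other scalings and with any 1 array left out, the members' differences stayed between -1.04 (PSMB6) and -0.64 (PSMC2). PSMB6 moved least when single arrays were left out, at -1.04 to -1.03, and PSMC2 most, at -0.80 to -0.64.

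**Figure D4:**
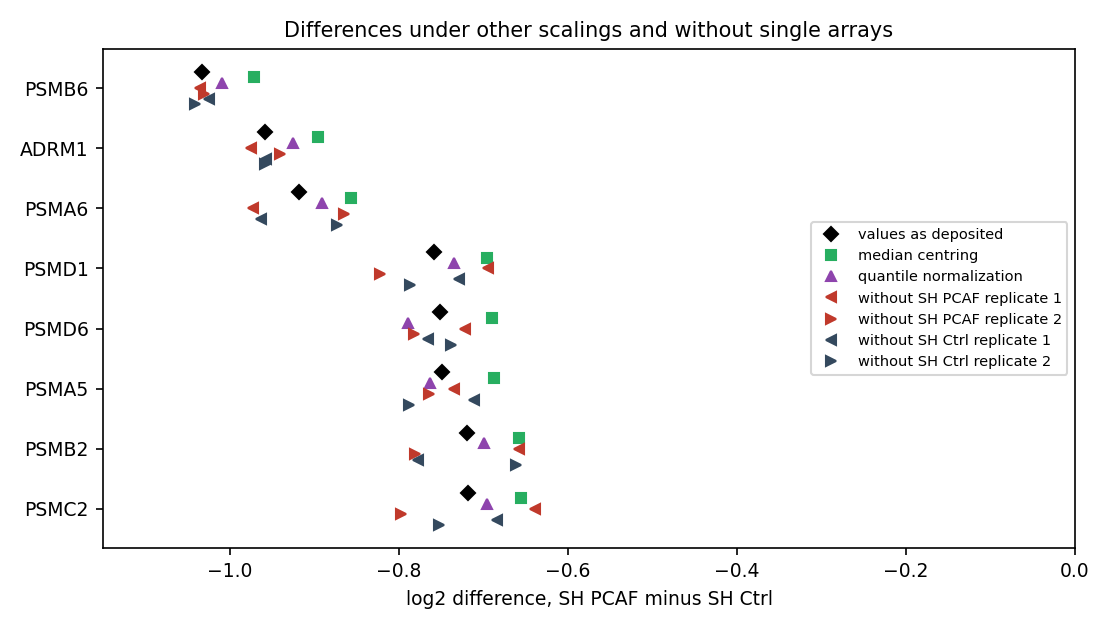
Log2 difference of SH PCAF minus SH Ctrl (horizontal axis) for each proteasome gene on the values as deposited (black diamonds), after median centring (green), after quantile normalization (purple) and without each array in turn (red and dark arrowheads). All points lie between -1.04 and -0.64, and PSMB6, ADRM1 and PSMA6 stay to the left of the other 5 genes.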

How the data were processed

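Total RNA of 4 HCT116 samples was hybridised as biotinylated cRNA to 4 single-colour Affymetrix arrays, per the labels' protocols. The authors deposited log2 probe set signals (log2 scale read from the values). Per the submitters' processing notes the tools were Affymetrix Expression Console and limma, with neither versions nor roles. How signals were summarized and normalized, and the build, is not given in the sources used here. Scanner files were not analysed here, so background and scan batches have no check. The authors' deposited table also gives p-values, unadjusted and without a named test, and a value headed fold change, which is treated here as a score because it is proportional to the absolute log2 difference.

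SH PCAF minus SH Ctrl was fitted with limma 3.58.1 (R 4.3.3, lmFit and eBayes, no covariate or filter) over 33297 probe sets with Benjamini-Hochberg adjustment and a threshold of 0.05. Symbols of the table were updated through RefSeq. The named genes are all members, the table genes of the pathway lists and the 5 nearest profiles. The members, lists and motifs were chosen with earlier results of these data known. Alternatives were other scalings, a filter on dim probe sets, a replicate block, other priors and weights, a stricter threshold and leaving out each array. Motifs were searched with Python 3.11.15.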

Additional observations from a re-analysis of the deposited data

How the results depend on the processing

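The count of called probe sets was 4294 (2346 higher, 1948 lower) on the values as deposited, 4431 (3012 higher, 1419 lower) after median centring, 4584 with the replicate number as a block (replicate block), 288 at an adjusted p below 0.01, and 0 to 2363 with 1 array left out. Without SH Ctrl replicate 1 and without SH Ctrl replicate 2 it was 0 by limma, with 6848 and 6849 probe sets at an unadjusted p below 0.05. Without SH PCAF replicate 1 and 2 it was 1933 and 2363. Of the 8 proteasome genes, 8 were called with the block, 2 at an adjusted p below 0.01 (PSMB6 and ADRM1), and 0 to 8 with 1 array left out. The fewer arrays of those fits leave 1 residual degree of freedom, and the lone array is assumed to vary like the others. The sources do not say whether the replicate numbers pair the samples, and the replicate differences of the groups correlated at r = 0.254 over probe sets. The median difference over the members was -0.69 after median centring and -0.81 to -0.73 with 1 array left out. Median centring moves the median of all probe sets to 0.02, against -0.05 as deposited, by its construction. Leaving out the 4201 lowest identifiers, an alternative chosen after seeing the data, gave 7 called of the 7 members left. Of the 29096 probe sets left, 5319 were called (2950 higher, 2369 lower). Under median centring and quantile normalization, 7 of 16 member differences and 9 of 26 differences of the other named genes moved by more than the replicate SD. Of these differences 0 changed sign, which was to be foreseen, as all were at least 0.70 in size as deposited. Median centring adds the same constant to every difference, so there the genes counted as moved are those with the smallest replicate SD. The other alternatives either left a difference as it was or, by their construction, could not move it by more than that SD.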
